A study of Mus musculus with 9 samples.

Results

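The E2F transcription factors and the retinoblastoma (pocket) proteins that bind them were described across 9 RNA-seq libraries of mouse embryonic fibroblasts (MEFs), connective tissue cells cultured from mouse embryos. The 10 genes were chosen by symbol as members of both families: E2f1, E2f2, E2f3, E2f4, E2f5, E2f7, E2f8, Rb1, Rbl1 and Rbl2. They were 10 of the 16428 genes in the count table, and all 10 passed the filter on low values. E2f6, a further E2F in the count table, was not among the 10 and is described with the partners. Every culture, the untreated one included, carried the same genotype, CARM1f/f ER-Cre, that is, a floxed allele of the arginine methyltransferase gene Carm1 together with a Cre recombinase that tamoxifen-type ligands switch on; the promoter driving it is not given in the labels. The WT group (3 libraries) was untreated, so it was floxed and Cre-bearing rather than genetically wild type. The KO group (3 libraries) had received 2 uM 4-OHT, the active form of tamoxifen, to delete the floxed allele, and the CARM1i group (3 libraries) had received 1 uM TP-064, a small molecule inhibitor of the CARM1 enzyme. All cultures were harvested after 6 days. No culture with 4-OHT but without a floxed allele, and none with the solvent alone, was analysed here, so deletion and exposure to 4-OHT cannot be told apart. The labels do not state the age or number of embryos, or whether the libraries of a group came from separate cultures, and p-values therefore measure only how far these libraries differ, which could be a technical spread.

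E2F proteins bind the promoters of genes needed for DNA synthesis and cell division. E2F1, E2F2 and E2F3 are classed as activators. E2F4 and E2F5 act mostly as repressors held on promoters by pocket proteins, and E2F7 and E2F8, the atypical members, repress without a pocket protein or a DP partner. In resting cells RB (Rb1) holds the activators, while p107 (Rbl1) and p130 (Rbl2) bring E2F4 or E2F5 into the DREAM complex. Cyclin-dependent kinases phosphorylate the pocket proteins as cells enter the cycle, which frees the E2Fs. E2f1, E2f7, E2f8 and Rbl1 are themselves known E2F targets in cycling cells, whereas p130 is best known from cells that have left the cycle.

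Across the 10 genes, 3 fell steeply in KO cells, to 0.381 (E2f7), 0.441 (E2f8) and 0.475 (Rbl1) times their WT level. E2f5 fell by a smaller amount, Rbl2 rose slightly, and E2f1, E2f2, E2f3, E2f4 and Rb1 did not pass the test. In CARM1i cells E2f7 and Rbl1 fell by less than in KO cells, and no other member was called.

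The upstream sequences of the 3 genes that fell most, and of E2f3 and Rbl2, which did not fall, are shown because words matching E2F sites were sought in them. RefSeq promoter windows (build GRCm38.p6, 250 bases before to 50 after the annotated start) matched 7 of the 10 genes, in 9 windows; E2f4, E2f5 and Rb1 had no match. The part before the start is printed 5′ to 3′ on the gene's strand, in lower case, with matches to the searched words in capitals. The full E2F words were TTTCCCGC, TTTCGCGC, TTTGCCGC and TTTGGCGC, the core words were the same without their first T, and the cell cycle genes homology region (CHR) word was TTTGAA, all sought on both strands.
Rbl1, chr2:157204535-157204784, minus strand: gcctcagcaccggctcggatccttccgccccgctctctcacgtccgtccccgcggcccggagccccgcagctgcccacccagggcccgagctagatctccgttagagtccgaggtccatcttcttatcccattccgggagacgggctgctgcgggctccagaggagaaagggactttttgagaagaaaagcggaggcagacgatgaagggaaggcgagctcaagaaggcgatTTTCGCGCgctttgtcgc
E2f7, chr10:110745189-110745438, plus strand: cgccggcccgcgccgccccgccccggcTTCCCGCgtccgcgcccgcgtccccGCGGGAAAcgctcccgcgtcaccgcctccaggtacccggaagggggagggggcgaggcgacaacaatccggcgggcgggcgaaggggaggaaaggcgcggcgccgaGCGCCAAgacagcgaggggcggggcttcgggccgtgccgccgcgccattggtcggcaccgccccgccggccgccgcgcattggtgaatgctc
E2f8, chr7:48881597-48881846, minus strand: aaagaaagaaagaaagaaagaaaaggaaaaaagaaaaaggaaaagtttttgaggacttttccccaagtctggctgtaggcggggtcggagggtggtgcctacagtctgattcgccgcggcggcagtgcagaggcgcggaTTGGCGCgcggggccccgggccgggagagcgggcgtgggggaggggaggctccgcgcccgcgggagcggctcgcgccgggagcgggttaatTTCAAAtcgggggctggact
E2f3, chr13:29986064-29986313, minus strand: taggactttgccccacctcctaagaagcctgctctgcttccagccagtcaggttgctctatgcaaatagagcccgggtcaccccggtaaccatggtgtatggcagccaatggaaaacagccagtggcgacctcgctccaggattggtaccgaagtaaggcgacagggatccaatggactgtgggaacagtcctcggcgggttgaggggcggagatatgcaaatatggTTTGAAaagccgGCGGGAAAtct
Rbl2, chr8:91069807-91070056, plus strand: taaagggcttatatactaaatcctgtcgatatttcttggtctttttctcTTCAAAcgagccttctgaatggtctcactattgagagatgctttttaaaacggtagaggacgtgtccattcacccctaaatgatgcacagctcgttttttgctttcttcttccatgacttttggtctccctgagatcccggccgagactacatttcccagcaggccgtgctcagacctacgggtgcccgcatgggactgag
The Rbl1 window held the full word TTTCGCGC, beginning 18 bases before the start. The E2f7 window held the core word TTCCCGC at 223 bases before the start, the full word in reverse, GCGGGAAA, at 198 bases, and the core word in reverse, GCGCCAA, at 92 bases. The E2f8 window held the core word TTGGCGC at 111 bases and the reverse of the CHR word, TTCAAA, at 20 bases before the start. The printed E2f3 window, of a gene that passed no test, held the full word in reverse, GCGGGAAA, at 11 bases before the start. It also held the CHR word TTTGAA at 23 bases before the start and the core word TTGGCGC, 19 bases after it. Another E2f3 window held no match. E2f2, which also passed no test, held the full word TTTGGCGC, 40 bases after the start. Another E2f2 window held the CHR word TTTGAA, 31 bases before its start. The E2f1 window held no match, but it lay inside the annotated gene. Its part before the RefSeq start was chr2:154569427-154569676, while the gene as annotated here begins at 154569892 on the minus strand. The bases before that annotated start were therefore not searched. The words were thus found in windows of genes that fell and of genes that did not. In the Rbl2 window the only match was the reverse CHR word, 201 bases before the start. Of 32851 RefSeq mouse windows of 300 bases, 2.26% held a full E2F word, 9.57% held a core word (every full word contains one) and 17.9% held the CHR word. These matches describe letters only.

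Carm1 itself was measured first as a check on the labels. Its normalised read count was 1079, 1143 and 1091 in WT, 794, 711 and 769.8 in KO, and 1112, 1072 and 986 in CARM1i. The KO values were all below the others, with a log2 fold change of -0.54 ± 0.06 (SE; adjusted p = 5.49e-07, limma), while the CARM1i libraries did not pass the test against WT (-0.06 ± 0.06, adjusted p = 0.496). The count covers the whole gene and not the floxed exons alone, so a remaining transcript that lacks them would still be counted. The libraries held 28657018 to 35842771 reads on genes. Replicates within a group were separate libraries, since every pair differed by more than sampling noise (chi-square per gene 2.47 to 8.47). CARM1i replicate 3 stood apart from its group on the third principal component (9.58% of the variance), at 19.5 against -11.0 and -11.7; without it, 2 family members were still called between CARM1i and WT. All 10 fibroblast markers were in the table, and their summed normalised count was 392592 to 407588 in WT, 343776 to 366243 in KO and 360462 to 392886 in CARM1i, with 7 of 9 tested markers lower and 2 higher in KO than in WT. Macrophage markers summed to between 259 and 341 in all 9 libraries, and the defining markers Ptprc, Adgre1 and Itgam were not among the genes analysed. Other marker lists differed between KO and WT without overlap. The neural list (4 of 6 markers present, without Sox2 and Sox10) summed to 775 to 871 in WT, 485 to 505 in KO and 637 to 706 in CARM1i. The endothelial list (5 of 6) summed to 390 to 446 in WT and 463 to 525 in KO. The 1 epithelial marker present of 6 went from between 23.3 and 48.0 in WT to between 91.9 and 126 in KO, and the 1 skeletal muscle marker present of 5 from between 142 and 159 to between 205 and 251. The part of these marker differences in the results was not tested. In bulk RNA, fewer cells expressing a gene and less RNA per cell cannot be told apart, and the share of cycling cells was not measured.

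Over all 14560 genes tested, 41.9% were called at an adjusted p under 0.05 between KO and WT (21.4% higher, 20.5% lower), 19.1% between CARM1i and WT (10.5% higher, 8.59% lower) and 23.6% between CARM1i and KO (12.1% higher, 11.5% lower). Against this background, 5 of the 10 family members were called between KO and WT, 1 higher and 4 lower. Between CARM1i and WT 2 of 10 were called, both lower, and between CARM1i and KO 3 of 10, all higher in CARM1i. The shares called were thus near those of all genes. The median log2 fold change of the 10 members was -0.13 in KO and -0.05 in CARM1i, beside -0.0043 and -0.0047 for all tested genes. Both treatments were compared with the same WT libraries, so their values are set side by side and not correlated.

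**Figure D1:**
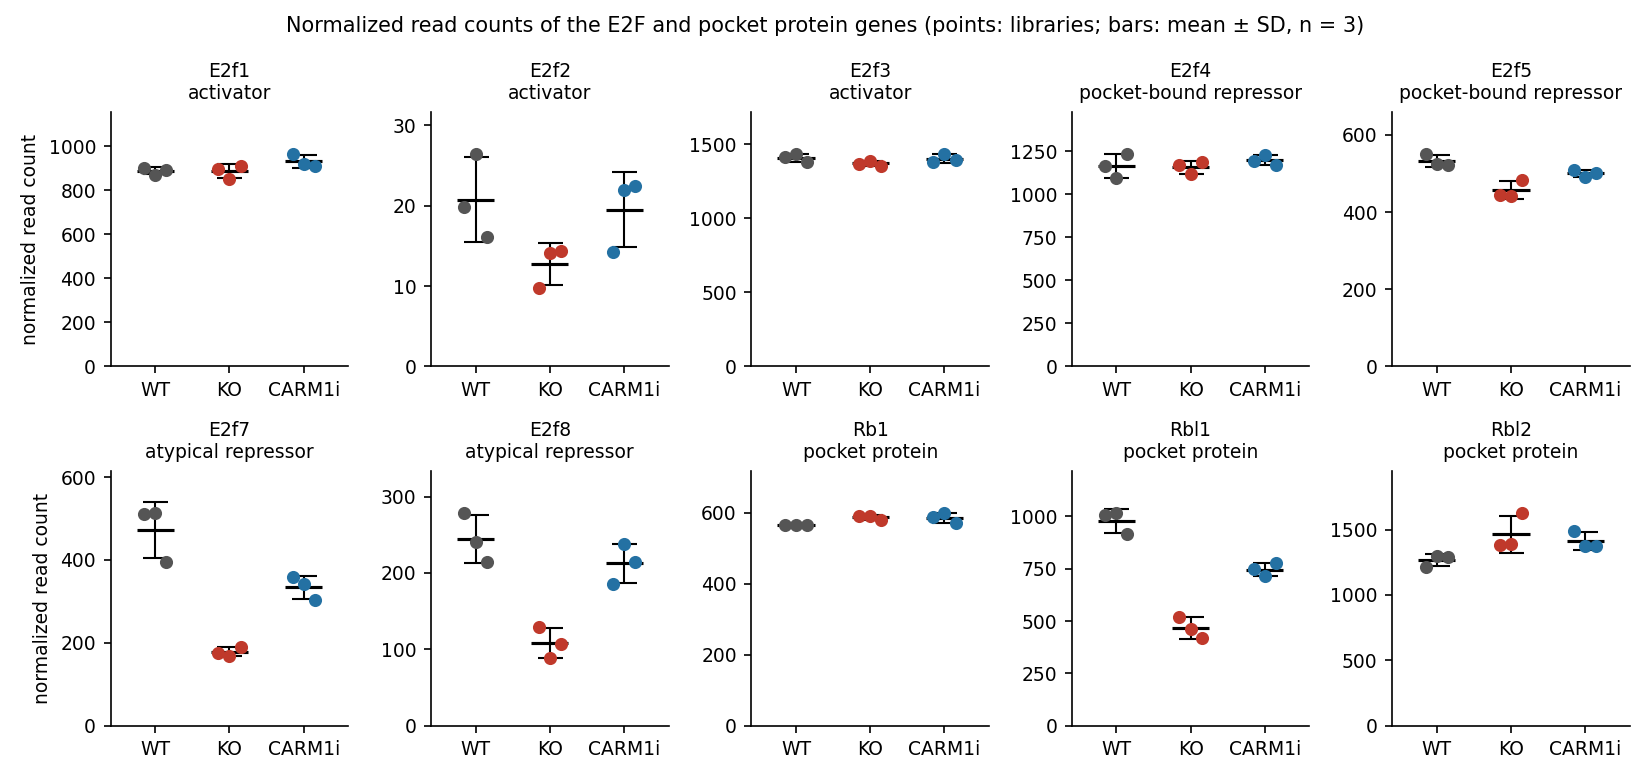
Normalised read count of each of the 10 genes in every library (1 panel per gene, vertical axis from 0; points are single libraries, and the bars are the mean ± SD of 3). The KO points for E2f7, E2f8 and Rbl1 lie below all WT and CARM1i points, whereas WT and KO overlap for E2f1, E2f3 and E2f4.

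Among the activators, E2f1 passed no test and its groups differed by a few percent at most. E2f1 encodes the activator that is best known for driving entry into S phase (ENSMUSG00000027490.17, mm10 chr2:154559407-154569892, minus strand). Its normalised read count was 902, 871 and 894 in WT, 899, 853 and 911 in KO, and 966, 921 and 912 in CARM1i. WT and KO overlapped throughout, and the CARM1i libraries were above all WT libraries by a small margin. The log2 fold change was -0.00 ± 0.05 in KO (95% interval -0.11 to 0.10, adjusted p = 0.973) and 0.07 ± 0.05 in CARM1i (adjusted p = 0.395).

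E2f3, an activator that MEFs are known to need for proliferation, was likewise flat at 1413, 1434 and 1383 in WT, 1368, 1390.1 and 1356 in KO, and 1379.85, 1435 and 1396 in CARM1i. Its log2 fold changes were -0.04 ± 0.04 (adjusted p = 0.476) and -0.01 ± 0.04 (adjusted p = 0.939). Gene counts do not separate the E2f3 isoforms that start from different promoters. E2f2, the remaining activator, was close to the filter, with 9 to 27 reads in each library. Its normalised counts were 19.8, 26.4 and 16.0 in WT, 9.73, 14.1 and 14.3 in KO and 14.2, 21.9 and 22.4 in CARM1i. KO lay below WT in every library, but the log2 fold change of -0.66 ± 0.33 had an interval from -1.35 to 0.03 and did not pass (adjusted p = 0.120), so a fall of this size was not resolved at this depth.

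Of the 2 pocket-bound repressors, E2f5 fell modestly in KO and E2f4 did not pass any test. E2f4 (chr8:105297663-105305370), the main E2F of resting cells, stood at 1165, 1096 and 1234 in WT, 1169, 1116 and 1189 in KO, and 1196, 1229 and 1169 in CARM1i, with log2 fold changes of -0.01 ± 0.05 (adjusted p = 0.923) and 0.04 ± 0.05 (adjusted p = 0.636). E2f5 (chr3:14578641-14606309), a related repressor, was counted at 550.4, 525 and 521 in WT, 445, 441 and 483 in KO and 508, 492 and 500.1 in CARM1i. All KO libraries were below all WT libraries, and the CARM1i libraries lay between them without overlap. The KO change was -0.22 ± 0.07 (95% interval -0.36 to -0.08, adjusted p = 0.0110), and the CARM1i change of -0.09 ± 0.07 did not pass (adjusted p = 0.396).

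Both atypical repressors fell steeply in KO. E2f7 (ENSMUSG00000020185.16, chr10:110745439-110787384), which restrains E2F target genes late in S phase, was counted at 511, 513 and 395 in WT, 176, 168 and 191 in KO, and 358, 341 and 303.5 in CARM1i. The 3 groups did not overlap, and CARM1i lay between WT and KO. The log2 fold change was -1.39 ± 0.11 in KO (95% interval -1.62 to -1.17, adjusted p = 7.24e-09), a level 0.381 times that of WT, and 123 of the 14560 genes had a lower value. In CARM1i it was -0.49 ± 0.11 (95% interval -0.72 to -0.27, adjusted p = 0.00307), or 0.711 times WT. The difference between CARM1i and KO was itself called, at 0.90 ± 0.11 (adjusted p = 6.51e-06).

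E2f8 (ENSMUSG00000046179.17, chr7:48866429-48881596, minus strand), which acts with E2F7, was counted at 278, 241 and 215 in WT, 129, 88.7 and 107 in KO, and 185, 237 and 215 in CARM1i. KO was below every other library, while CARM1i overlapped WT. The log2 fold change was -1.18 ± 0.14 in KO (95% interval -1.48 to -0.88, adjusted p = 2.64e-06), or 0.441 times WT, with 218 of 14560 genes lower. In CARM1i it was -0.20 ± 0.14, which did not pass (95% interval -0.50 to 0.10, adjusted p = 0.375). CARM1i exceeded KO by 0.98 ± 0.14 (adjusted p = 6.55e-05). E2f8 shares 610 exonic bases (11.2% of its exon length) with Gm2788 on the opposite strand, which had a mean count of 27.4 and was not called in KO (adjusted p = 0.343).

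The pocket protein genes moved apart from each other. Rb1 (chr14:73183673-73325822, minus strand), which encodes RB and restrains the activators, was counted at 565, 567 and 566 in WT, 591, 589.7 and 579 in KO, and 588, 598 and 569.6 in CARM1i. Both treated groups were above WT in every library by a few percent, and neither log2 fold change passed, at 0.05 ± 0.06 in KO (adjusted p = 0.506) and 0.05 ± 0.06 in CARM1i (adjusted p = 0.623). Rb1 shares 488 exonic bases with Rcbtb2 and 408 with Lpar6 on the opposite strand, and both of these fell in KO (Rcbtb2 -0.17, adjusted p = 0.00480; Lpar6 -0.29, adjusted p = 0.0199). Whether reads were counted by strand is not given in the sources used here, and the part of such overlaps in the Rb1 value was not tested.

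Rbl1 (ENSMUSG00000027641.13, chr2:157145893-157204534, minus strand), which encodes p107, fell in both treatments. Its normalised count was 1006, 1015 and 914 in WT, 521, 459.7 and 417 in KO, and 747, 714 and 777 in CARM1i. The 3 groups were separate, with CARM1i in the middle. The log2 fold change was -1.07 ± 0.07 in KO (95% interval -1.23 to -0.92, adjusted p = 2.03e-09), 0.475 times WT, with 302 of 14560 genes lower. In CARM1i it was -0.39 ± 0.07 (95% interval -0.55 to -0.23, adjusted p = 0.00109), 0.763 times WT. CARM1i exceeded KO by 0.68 ± 0.07 (adjusted p = 2.49e-06).

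Rbl2 (ENSMUSG00000031666.15, chr8:91070057-91123844), which encodes p130, rose slightly in KO. It was counted at 1214, 1299.8 and 1293 in WT, 1379, 1389 and 1625 in KO, and 1492, 1374 and 1378 in CARM1i. Every treated library of both kinds was above every WT library. The log2 fold change was 0.20 ± 0.06 in KO (95% interval 0.08 to 0.33, adjusted p = 0.0106), 1.15 times WT, and 0.16 ± 0.06 in CARM1i (95% interval 0.03 to 0.28, adjusted p = 0.0791). The KO call rested on single libraries: it was lost without KO replicate 3 (0.13, adjusted p = 0.0859), without WT replicate 1 (0.17, adjusted p = 0.0542) and without the intensity trend (adjusted p = 0.0619). Rbl2 shares 693 exonic bases (9.17% of its exon length) with Aktip on the opposite strand, which rose in KO by the same log2 amount (0.20 ± 0.08, adjusted p = 0.0430). In CARM1i, Aktip changed by 0.20 ± 0.08 and did not pass (adjusted p = 0.0684). Rbl2 also shares 892 exonic bases (11.8%) with Gm45464 on the opposite strand, which was not among the genes analysed. The part of these overlaps in the Rbl2 value was not tested.

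**Figure D2:**
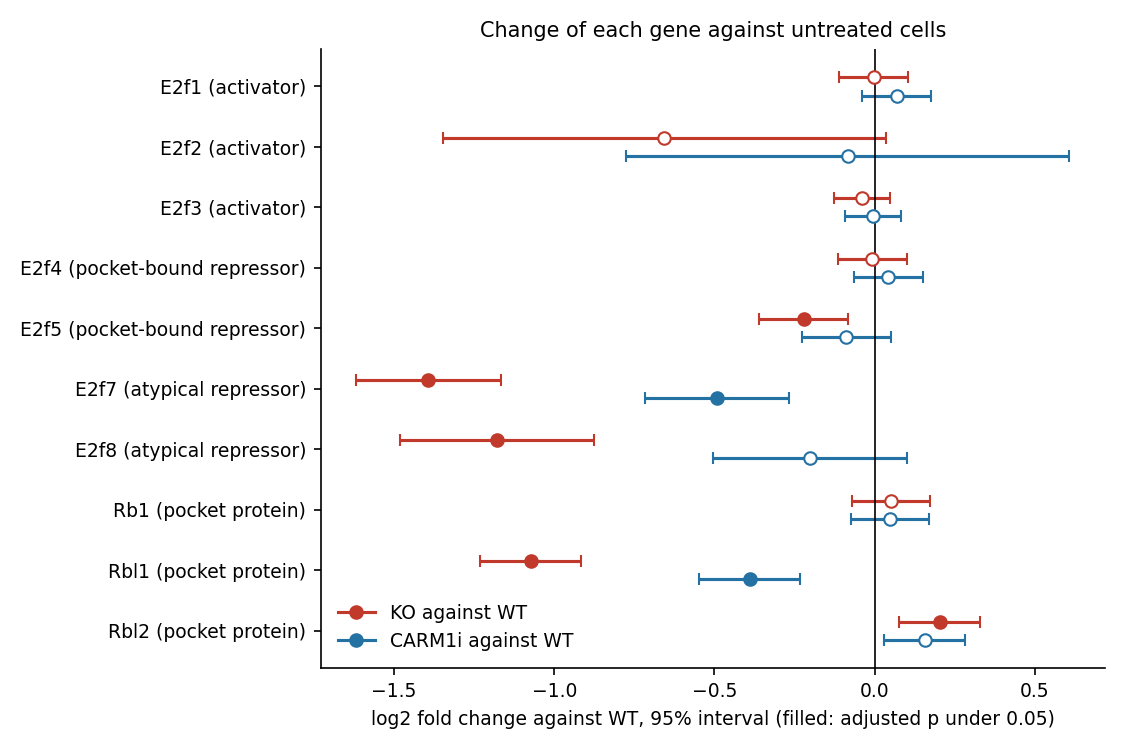
Log2 fold change of each gene in KO against WT and in CARM1i against WT, with 95% confidence intervals from limma (horizontal axis, log2 of value plus 1; filled points were called at an adjusted p under 0.05). E2f7, E2f8 and Rbl1 lie left of -1 in KO, and in CARM1i the same 3 genes lie between -0.49 and -0.20.

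Compared per kilobase of exon, the genes were ordered in WT as E2f4 (475 ± 28.1 normalised counts per kb, SD, n = 3), E2f5 (298 ± 9.05), E2f1 (282 ± 5.06), E2f3 (260 ± 4.76), Rbl2 (168 ± 6.26), Rbl1 (163 ± 9.31), Rb1 (94.1 ± 0.141), E2f7 (52.5 ± 7.52), E2f8 (44.9 ± 5.85) and E2f2 (4.25 ± 1.08). These levels use the summed exon length of each gene, not the isoforms in use. The neighbours Rbl2 and Rbl1 were within each other's spread in WT. The ranges of E2f7 and E2f8 overlapped in WT, but E2f7 was the higher within each library (ratio per kb 1.11, 1.29 and 1.11). In KO the order of the pocket proteins changed, since Rbl1 (77.7 ± 8.72 per kb) came below Rb1 (97.5 ± 1.10) in all 3 libraries, while Rbl2 stood at 194 ± 18.5. E2f7 and E2f8 were level in KO, at 19.8 ± 1.26 and 19.9 ± 3.67 per kb.

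The pocket protein transcripts summed to 425 ± 9.27 per kb in WT, 369 ± 11.2 in KO and 409 ± 9.94 in CARM1i. Rbl1 made up 38.4% ± 1.66 of that sum in WT, 21.1% ± 2.70 in KO and 30.4% ± 1.25 in CARM1i. Rbl2 made up 39.5% ± 1.46, 52.5% ± 3.57 and 45.8% ± 1.14 in the same order. The ratio of Rbl2 to Rbl1 per kb was 0.957, 1.02 and 1.12 in WT, 2.10, 2.40 and 3.09 in KO, and 1.58, 1.53 and 1.41 in CARM1i. The transcripts of p107 and p130 were therefore near parity in untreated cells and unequal in all 6 treated libraries, with no overlap between groups. From WT to KO, Rbl1 went from 163 to 77.7 per kb and Rbl2 from 168 to 194, so the Rbl2 to Rbl1 ratio mostly restates the fall of Rbl1. Among the E2Fs, the ratio of the activator E2f1 to the repressor E2f7 per kb was 5.04, 4.85 and 6.47 in WT, 14.6, 14.5 and 13.6 in KO, and 7.70, 7.71 and 8.58 in CARM1i. E2f1 did not pass the test, so this ratio mostly restates the fall of E2f7. E2f7 and E2f8 were minor transcripts among the chosen E2Fs, at 3.71% and 3.17% of their summed level per kb in WT. In KO each made up 1.52%. That sum leaves out E2f6.

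**Figure D3:**
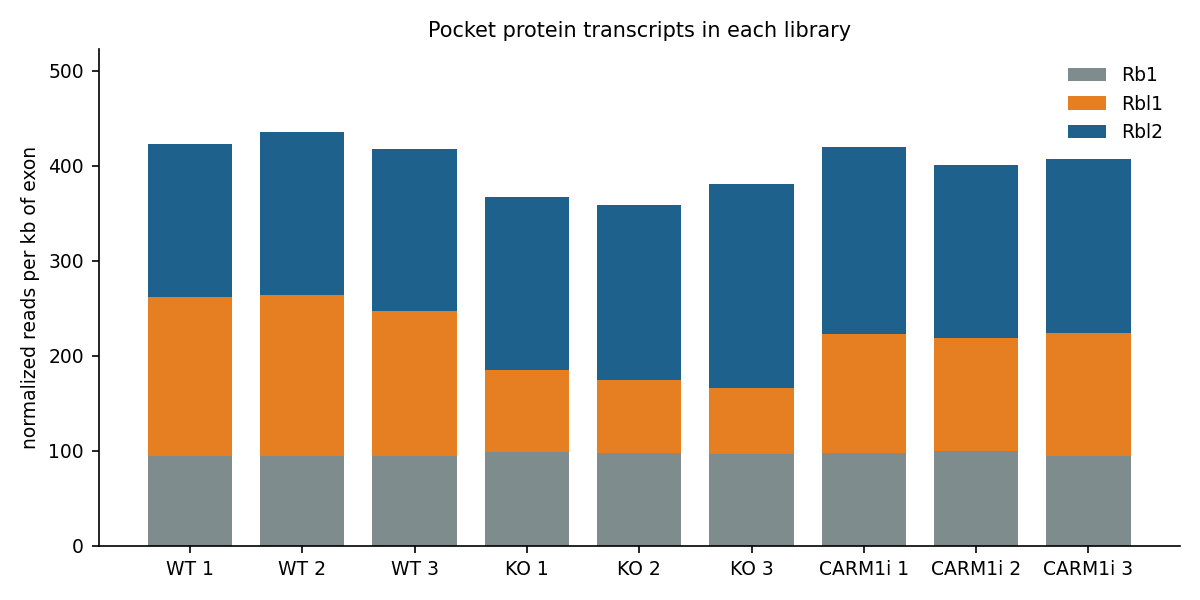
Rb1, Rbl1 and Rbl2 levels per kilobase of exon in each library, stacked from 0, with WT, KO and CARM1i libraries side by side. The Rbl1 segment is smallest in the 3 KO libraries (69.6 to 86.9 per kb, against 153 to 169 in WT), and the Rb1 segment is nearly the same height throughout.

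The partners that work with these proteins mostly fell in KO. In the list of E2F partners and DREAM complex genes, 0 of 11 rose, 8 fell and 3 did not pass (median log2 fold change -0.36), and in CARM1i 0 rose, 6 fell and 5 did not pass (median -0.13). The 6 include Lin54 (-0.14, adjusted p = 0.0467 in CARM1i), which was lost under 11 of 20 alternative settings. Among all tested genes, 20.5% fell in KO and 8.59% in CARM1i. Mybl2, the B-Myb factor that takes the place of pocket proteins on the MuvB core, went from 730 ± 47.1 in WT to 261 ± 16.5 in KO (-1.48 ± 0.09, adjusted p = 4.38e-10) and 523 ± 71.8 in CARM1i (-0.49 ± 0.09, adjusted p = 0.000942). Foxm1, which activates mitotic genes on the same core, went from 1551 ± 34.3 to 811 ± 41.6 in KO (-0.94) and 1224 ± 50.7 in CARM1i (-0.34). Of the MuvB core itself, Lin9 (-0.85), Lin54 (-0.53) and Rbbp4 (-0.27) fell in KO, whereas Lin37 (-0.16 ± 0.13, adjusted p = 0.340) and Lin52 (0.01 ± 0.09, adjusted p = 0.918) did not pass. Mybl1, a relative of Mybl2, changed by -0.67. The DP subunits that pair with the classical E2Fs changed by -0.36 (Tfdp2) and -0.19 (Tfdp1), and the pocket-independent repressor E2f6 did not pass (-0.11 ± 0.06, adjusted p = 0.127).

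Of the G1 cyclins and kinases upstream of the pocket proteins, 2 of 9 rose, 4 fell and 3 did not pass in KO (median -0.07), and in CARM1i 0 rose, 3 fell and 6 did not pass (median -0.14). The 3 include Cdk2 (-0.17, adjusted p = 0.0477 in CARM1i), which was lost under 11 of 20 alternative settings. The shares of all tested genes called in either direction were 41.9% in KO and 19.1% in CARM1i. Cyclin E2 (Ccne2), itself a known E2F target, went from 888 ± 84.9 to 418 ± 24.4 in KO (-1.08 ± 0.07, adjusted p = 1.11e-09) and 669 ± 19.9 in CARM1i (-0.40 ± 0.07, adjusted p = 0.000561). Ccne1 (-0.53), its kinase Cdk2 (-0.65) and the activating phosphatase Cdc25a (-0.26) also fell in KO. Cyclin D2 (Ccnd2), which with CDK4 or CDK6 makes the first phosphorylation of RB, rose from 6755 ± 219 to 9626 ± 308 in KO (0.51 ± 0.04, adjusted p = 8.17e-09) and did not pass in CARM1i (0.08 ± 0.04, adjusted p = 0.202). The rise of Ccnd1 in KO (0.20 ± 0.07, adjusted p = 0.0414) was lost under 10 of 20 alternative settings. In CARM1i, Ccnd1 did not pass (-0.14 ± 0.07, adjusted p = 0.199), but without CARM1i replicate 3, the library that stood apart, it was called lower (-0.28, adjusted p = 1.51e-06). Ccnd3 (0.09, adjusted p = 0.108), Cdk4 (-0.07, adjusted p = 0.0737) and Cdk6 (-0.07, adjusted p = 0.202) did not pass in KO, and Cdk6 fell in CARM1i (-0.21 ± 0.04, adjusted p = 0.00125).

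The CDK inhibitors, which keep the kinases off the pocket proteins, moved in both directions, with 3 of 7 higher, 3 lower and 1 not passing in KO (median -0.11). Those that rose were Cdkn1a (p21) at 0.35, Cdkn2a (the Ink4a/Arf gene) at 0.31 and Cdkn2b (p15) at 0.33. Those that fell were Cdkn1b (p27), from 1185 ± 21.5 to 665 ± 30.1 (-0.83 ± 0.05, adjusted p = 9.49e-10), Cdkn2c (p18) at -0.75 and Cdkn2d (p19) at -0.61, and Cdkn1c did not pass (-0.11 ± 0.18, adjusted p = 0.646). In CARM1i, Cdkn1b fell by 0.26 on the log2 scale, Cdkn2a rose by 0.16 (adjusted p = 0.0293, lost under 6 of 20 alternative settings), and the other 5 did not pass. Of all tested genes, 21.4% were higher and 20.5% lower in KO, and 10.5% and 8.59% in CARM1i.

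Among corepressors and chromatin partners of the pocket proteins, 1 of 16 rose, 6 fell and 9 did not pass in KO (median -0.09), and in CARM1i 0 rose, 3 fell and 13 did not pass. These shares were near the 41.9% and 19.1% called among all genes, and 1 of the 3, Rbbp7 (-0.09, adjusted p = 0.0352 in CARM1i), was lost under 10 of 20 alternative settings. The maintenance DNA methyltransferase Dnmt1, a known E2F target, went from 6351 ± 382 to 3656 ± 103 in KO (-0.80 ± 0.04, adjusted p = 2.77e-11) and 5432 ± 96.0 in CARM1i (-0.22 ± 0.04). The histone methyltransferase Suv39h1 changed by -0.52 in KO, and Rbbp7, Hdac2 and Arid4b changed by between -0.29 and -0.22.

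Components and regulators of ubiquitin ligases, listed for their action on E2Fs and pocket proteins, numbered 1 higher, 6 lower and 1 not passing of 8 in KO (median -0.46). In CARM1i 1 was higher, 4 were lower and 3 did not pass (median -0.16). Among all tested genes, 41.9% were called in KO (21.4% higher, 20.5% lower) and 19.1% in CARM1i (10.5% higher, 8.59% lower). In KO, Fbxo5 (Emi1), an inhibitor of the anaphase-promoting complex and a known E2F target, went from 1485 ± 88.7 to 485 ± 51.0 (-1.62 ± 0.07, adjusted p = 3.35e-12). Ccnf (cyclin F, a receptor for activator E2Fs) changed by -0.88, Cks1b by -0.65 and Skp2 by -0.59. The single gene that rose was Mdm2, the p53 ubiquitin ligase, at 0.65 ± 0.05 in KO and 0.22 ± 0.05 in CARM1i, the latter lost without the intensity trend (adjusted p = 0.0773).

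**Figure D4:**
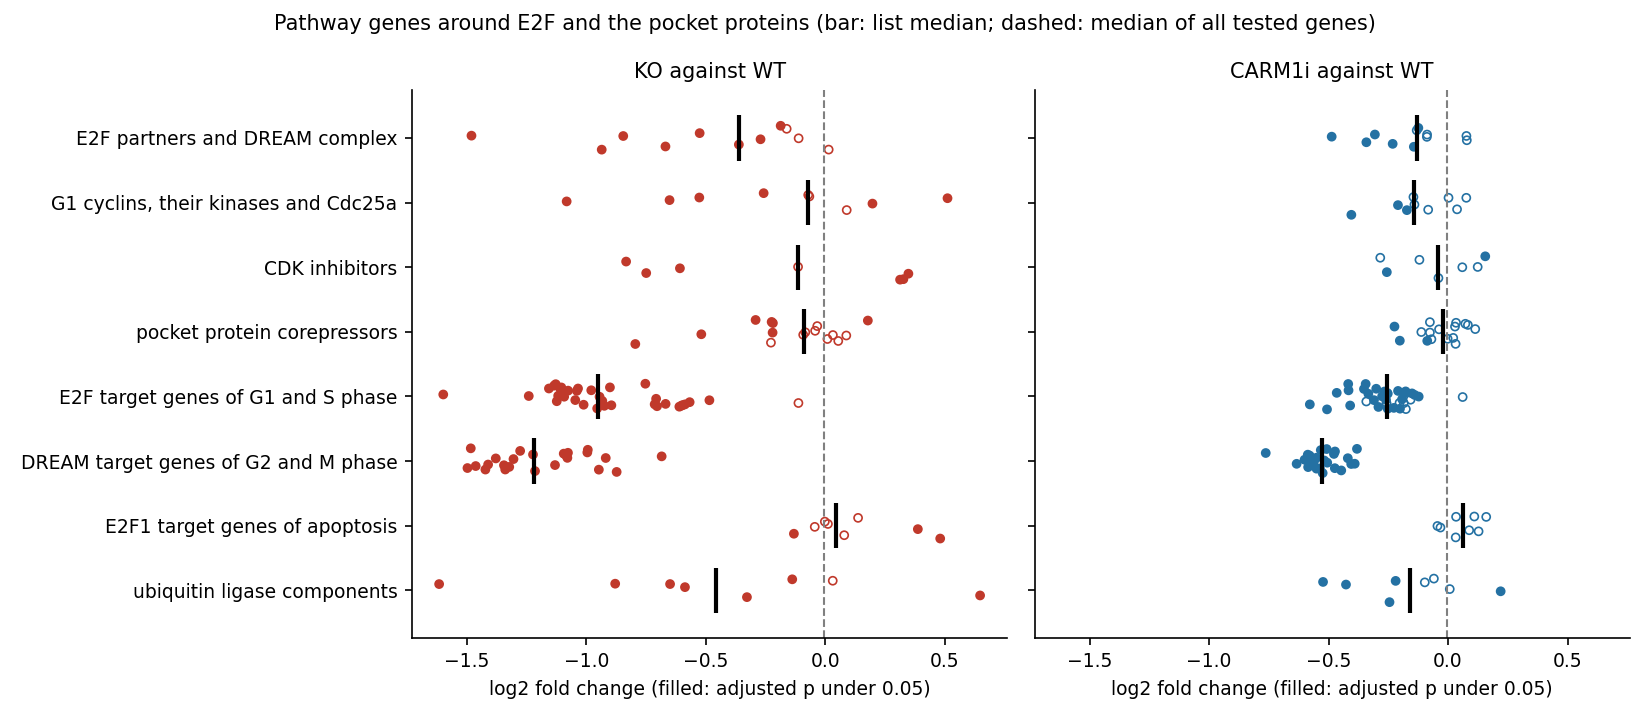
Log2 fold change of every tested gene of each pathway list in KO against WT and in CARM1i against WT (points are single genes, filled where called at an adjusted p under 0.05, and bars mark list medians; the dashed line is the median of all tested genes). The G1/S and G2/M target lists have medians of -0.95 and -1.22 in KO and of -0.26 and -0.53 in CARM1i, and the CDK inhibitors lie on both sides of 0.

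Downstream, nearly all of the listed G1/S and G2/M target genes fell in KO, while most of the listed apoptosis targets did not pass. Of 34 E2F target genes of G1 and S phase, 33 fell and 1 did not pass in KO (median -0.95), and 27 fell and 7 did not pass in CARM1i (median -0.26). Of 24 DREAM target genes of G2 and M phase, 24 fell in KO (median -1.22) and 24 in CARM1i (median -0.53). In the direct comparison all 34 and all 24 were higher in CARM1i than in KO, by medians of 0.66 and 0.68. Of all tested genes, 20.5% fell in KO, 8.59% fell in CARM1i and 12.1% were higher in CARM1i than in KO. Tk1, the thymidine kinase, changed most of the named S phase targets, from 1861 ± 46.8 to 615 ± 55.8 in KO (-1.60 ± 0.06, adjusted p = 9.94e-13) and 1247 ± 68.7 in CARM1i (-0.58 ± 0.06). The ribonucleotide reductase subunits Rrm1 (-1.10) and Rrm2 (-1.24), the helicase subunit Mcm6 (-1.08) and the methylation reader Uhrf1 (-1.13) fell alongside it. Among mitotic targets, Ccna2 (cyclin A2) went from 2641 ± 62.9 to 935 ± 29.1 (-1.50) and Mki67, the Ki-67 proliferation marker, from 5544 ± 38.6 to 1982 ± 52.5 (-1.48), with Top2a (-1.41), Kif11 (-1.46) and Prc1 (-1.28) beside them. The list of E2F1 targets of apoptosis had 2 of 8 tested genes higher, 1 lower and 5 not passing in KO (median 0.04). In CARM1i 0 of 8 were called by the main limma fit, edgeR or DESeq2 (median 0.06), and 1 of 8 had an unadjusted p under 0.05 in limma. With quantile normalization before limma, 1 of 8 was called in CARM1i, higher. The KO share was near the 41.9% called among all genes. In CARM1i 19.1% of all genes were called, and 4482 of 14560 had an unadjusted p under 0.05 in limma. With 8 genes, no difference from that background can be read from these counts.

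Library by library, the median of the G1/S list minus its WT mean was -0.88, -0.97 and -0.96 in KO and -0.24, -0.23 and -0.29 in CARM1i, and that of the G2/M list was -1.28, -1.21 and -1.22 in KO and -0.47, -0.48 and -0.57 in CARM1i. No KO library overlapped a CARM1i library in either list. E2f7, E2f8 and Rbl1 were below every WT library in all 3 KO libraries, and so were E2f5 and the low-count E2f2. E2f5, E2f7 and Rbl1 were also below every WT library in all 3 CARM1i libraries, where E2f2 and E2f8 overlapped WT. Rb1 and Rbl2 were above every WT library in both treatments, and E2f1 in CARM1i. The share of all genes that separate in this way was not counted. E2f1 stayed within 0.12 of its WT mean in all 9 libraries.

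**Figure D5:**
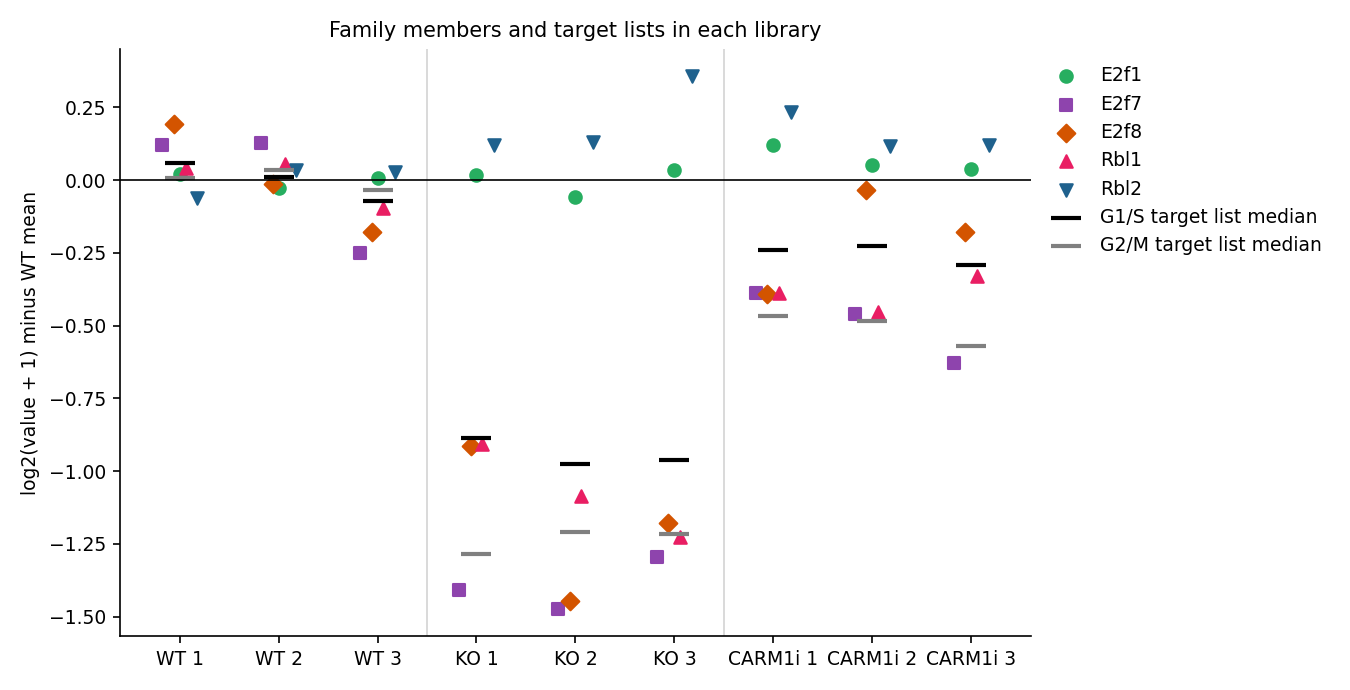
Log2 of value plus 1 minus the WT mean for E2f1, E2f7, E2f8, Rbl1 and Rbl2 in each library, with the medians of the G1/S and G2/M target lists as short bars. In the 3 KO libraries E2f7, E2f8 and Rbl1 lie with the target medians, far below 0, and E2f1 stays within 0.12 of 0.

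The genes whose pattern over the 9 libraries came closest were sought among 10504 protein-coding genes with a mean of at least 100, by the root mean square difference of log2 values from the WT mean. Nearest to E2f1 were Myo9a (0.0169), Spindoc (0.0193) and Abhd13 (0.0236), all flat genes. Nearest to E2f8 were Mcm10 (0.137), Dtl (0.142) and Exo1 (0.164), with KO changes of -1.14, -1.12 and -1.27. Nearest to Rbl1 were Hmgb3 (0.0726), Rrm1 (0.0727) and Cenpi (0.0781), with KO changes of -1.03, -1.10 and -1.03. Mcm10, Dtl and Rrm1 are also in the G1/S list. Over so few libraries this likeness describes the samples only.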

How the data were processed

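Polyadenylated RNA was sequenced from 9 libraries, 3 per group, with a stranded kit per the labels. Per the submitters' processing notes, the authors used TopHat2 2.0.10, HTSeq 0.6.0 and DESeq 1.18.0 on mm10; neither the annotation nor the strand setting of the counting is stated there. The deposited values are a normalised signal: each was a whole number of reads divided by the library's size factor (100% whole, tolerance 1e-06 reads; size factors 0.925 to 1.16). Genes were named by matching identifiers to GENCODE M21 without version (16413 of 16428). limma 3.58.1 (R 4.3.3, intensity trend) was fitted once to log2(value + 1) of all 3 groups, for the 14560 genes with a mean of at least 10, with Benjamini-Hochberg adjustment over all of them and a threshold of 0.05. Fold changes on this scale understate those of low genes. Count tests of the recovered reads, by edgeR (4.0.16) with TMM scaling and by DESeq2 (1.42.0), called 6150 and 5650 genes in KO, and 5 members each. The scripts were tested on simulated data. Named genes were every family member, Carm1, every partner, G1 and CDK inhibitor gene, and in the other lists those of smallest adjusted p, up to 5 each; the apoptosis list is given by counts. The members and lists were chosen with earlier results of these data known. Alternatives were other pseudocounts, filters, scalings, tools, thresholds, a replicate block and leaving out each library.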

Additional observations from a re-analysis of the deposited data

How the results depend on the processing

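The KO calls of E2f5, E2f7, E2f8 and Rbl1 kept their direction and passed at 0.05 in all 20 alternative fits. So did the CARM1i calls of E2f7 and Rbl1. The highest adjusted p were 0.0493, 1.05e-04, 0.00107 and 8.54e-05 in KO and 0.0340 and 0.0269 in CARM1i. Stricter thresholds were not among these 20 fits and removed some of these calls. Rbl2 passed in CARM1i without KO replicate 3 (adjusted p = 0.0377). Members called in KO numbered 3 at an adjusted p under 0.01 and 3 with a minimum of 1.5-fold, and those called in CARM1i against WT 0 with that minimum. Of all 14560 genes tested, the 1.5-fold minimum left 1436 calls in KO, 281 for CARM1i against WT and 522 for CARM1i against KO. An adjusted p under 0.01 left 4591, 1668 and 2155 of them in the same order. The 3 of 10 members called in KO at that threshold were thus near the share of all genes. Dropping the intensity trend left 1797 for CARM1i against WT. Replicate numbers did not pair the libraries: same-numbered libraries correlated at -0.0870 to 0.0268, others at -0.0373 to 0.0742, and 1 of 9 libraries correlated best with its own number. With the replicate block, 5 members were called in KO, 2 for CARM1i against WT and 3 for CARM1i against KO, and 5865, 2553 and 3156 genes in all. Small changes that did not pass the test turned sign: with quantile normalization E2f1 and E2f4 in KO were 0.051 and 0.022 and Ccnd3 in CARM1i -0.025; with a common total Ccnd3 in CARM1i was -0.014 and Lin52 in KO -0.0032; with edgeR Rb1 in CARM1i against KO was 0.00041. The cause was not tested. Leaving out 1 library at a time gave ranges across 0 in KO for E2f1 (-0.022 to 0.026), E2f4 (-0.050 to 0.035), Lin37 (-0.28 to 0.0037) and Lin52 (-0.021 to 0.051). In CARM1i against WT they were -0.25 to 0.12 for E2f2, -0.023 to 0.0057 for E2f3, -0.0011 to 0.084 for E2f4, -0.020 to 0.040 for Ccnd3, -0.10 to 0.17 for Cdkn1c and -0.10 to 0.0033 for Cdkn1a. In CARM1i against KO they were -0.019 to 0.016 for Rb1, -0.088 to 0.031 for Rbl2 and -0.092 to 0.19 for Lin37. Depth limits E2f2 most, with 9 to 27 reads a library.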
